A study of Mus musculus with 6 samples.

Results

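The 10 genes described here encode core subunits, though not all, of the machinery that cuts a nascent messenger RNA and hands it over for poly(A) tail addition. They were chosen by name: every row of the deposited tables whose symbol was Cpsf1, Cpsf2, Cpsf3, Cpsf4, Cpsf6, Cpsf7, Cstf1, Cstf2, Cstf3 or Nudt21, which gave 10 of the 46072 genes listed. RNA came from whole mouse embryos collected at the 4-cell stage, in 3 control libraries and 3 libraries from embryos that had received small interfering RNA (siRNA) against Son by microinjection as zygotes. Son encodes an RNA-binding protein of nuclear speckles that takes part in splicing. The mouse strain, the siRNA dose, what the controls were injected with and the number of embryos in each library are not stated in the labels. Nothing in the labels says that libraries of a group came from separate matings, and p-values therefore measure only how these samples vary, which may be technical.

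Cleavage and polyadenylation uses 3 multi-subunit assemblies that read different parts of the RNA. The cleavage and polyadenylation specificity factor, CPSF, recognises the AAUAAA signal upstream of the cut and carries the nuclease. The cleavage stimulation factor, CstF, binds U-rich and GU-rich RNA downstream of the cut. Mammalian cleavage factor I, CFIm, binds UGUA elements upstream and affects which of several sites in a gene is used. In the oocyte and the early embryo the same AAUAAA signal also serves the cytoplasmic lengthening of stored poly(A) tails.

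Most of these genes have, near the end of their own transcript, the signal that CPSF reads, and 4 stretches around it are shown because they cover both forms found. Sequences were read from GENCODE vM21 transcripts (GRCm38), the longest coding transcript of each gene, in the sense strand 5′ to 3′ with T for U. Capitals mark the signal, which for Cpsf2 is the later of overlapping AATAAA copies. Each stretch is limited to 12 bases on either side of the capitals, so that those of Cpsf4 and Cpsf7 stop short of the annotated end.
Cpsf2: atttcgctaataAATAAAagatgctgagc
Cpsf4: tctatgaggttgATTAAAaagcttgttttt
Cpsf6: tcttgtattgaaAATAAAaacaaagttttg
Cpsf7: tgaaaattgtgtAATAAActtgatgacgat
The AATAAA form was present in the last 50 bases of 7 of the 10 annotated ends, and of 59.1% of the 21899 coding genes searched on the transcript strand in the same way. The Cpsf4 transcript had ATTAAA and no AATAAA, as did 13.0% of coding genes. The annotated ends are at position 102006424 of chromosome 12 for Cpsf2 (plus strand), 145182040 of chromosome 5 for Cpsf4 (plus), 117344673 of chromosome 10 for Cpsf6 (minus) and 10547653 of chromosome 19 for Cpsf7 (plus). Between the signal in capitals and these ends lay 11, 13, 12 and 15 bases. Neither form was in the last 50 bases annotated for Cpsf1 and Cpsf3.

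Values are CPM, the share of a library's counts that fell to a gene, scaled with edgeR's TMM factors, from estimated counts of 104634855 to 118865650 units per library. Spearman correlations of 0.879 to 0.908 between libraries gave no sign of a library deposited more than once. Controls had 19102 to 20411 genes above 0 and siRNA libraries 20996 to 21337, so the groups did not overlap in this count. Son itself had 249, 322 and 332 CPM in controls and 41.03, 28.02 and 25.1 CPM after siRNA, which follows the labels. Embryo and oocyte markers (6 of 6 detected) summed to 498 to 1108 CPM in controls and 719.5 to 1075 CPM after siRNA. Cumulus and granulosa markers summed to at most 0.537 CPM, with Foxl2, Fshr, Inha and Cyp11a1 at 0 in each library. Sperm markers, 3 of 6 detected, summed to 0.150 to 1.14 CPM in controls and 0.151 to 0.905 CPM after siRNA, with Acr, Odf1 and Tnp2 at 0. Blood markers, also 3 of 6 detected, summed to 6.02 to 12.1 CPM in controls and 9.74 to 10.96 CPM after siRNA, with Ptprc, Hbb-bs and Hbb-bt at 0.

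Of the 10 genes, Cpsf1 stood apart after Son siRNA, while the fitted values of the other 9 were 0.882 to 1.79 times control, each with an interval that included no change. Cpsf1, which encodes the largest CPSF subunit, was at 21.3% of its control mean. In edgeR's quasi-likelihood fit 0 of the 10 passed at an adjusted p of 0.05, against 0.989% of the 17788 genes tested. At an unadjusted p under 0.05 there was 1, Cpsf1, against 14.7% of all genes. DESeq2's Wald test and limma-voom with group weights each called 1, Cpsf1 again, against 7.52% and 2.1% of all genes. Fold changes were below 0 for 4 of the genes and above 0 for 6. Their median was 0.071 in log2, beside 0.024 over all genes tested. Control and siRNA values did not overlap for 1 gene that was lower and 2 that were higher, while 11.6% and 12.1% of all genes were separated in these directions.

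**Figure D1:**
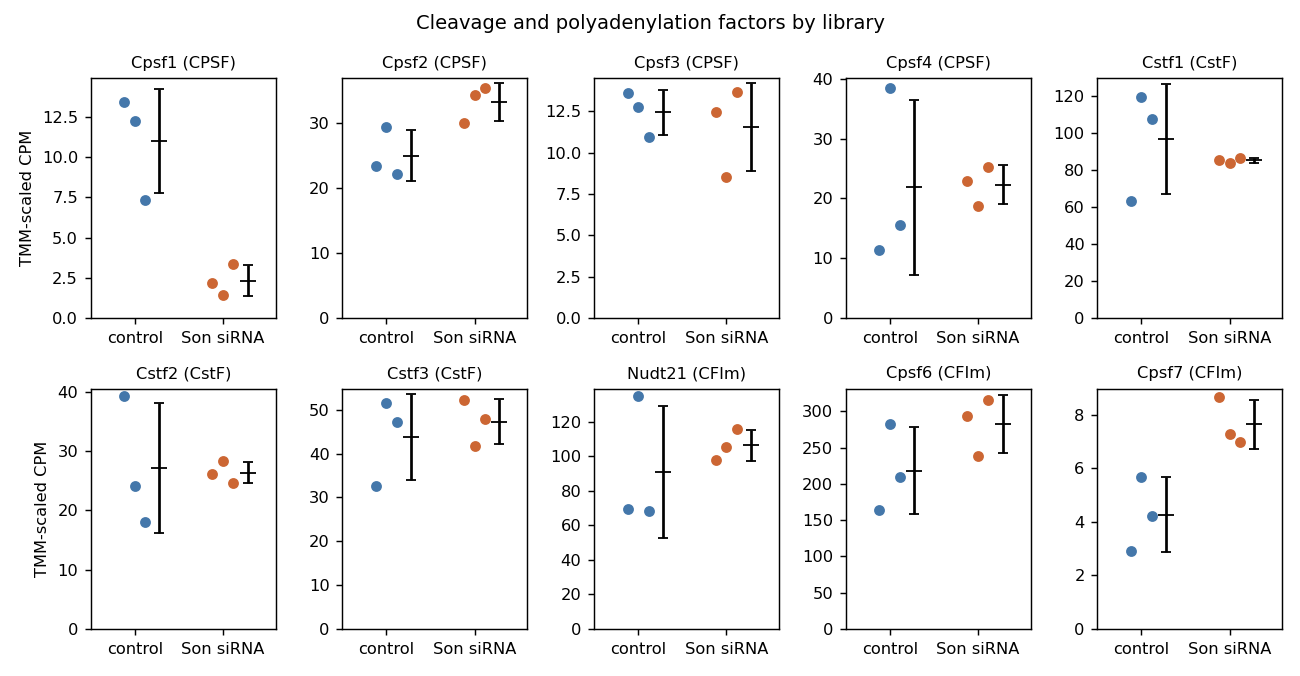
TMM-scaled CPM (vertical axis, from 0, its range set for each gene) of the 10 genes in 3 control libraries (blue) and 3 Son siRNA libraries (orange), with the mean and SD beside each group in black. Cpsf1 lies between 7.34 and 13.4 CPM in controls and between 1.47 and 3.33 CPM after siRNA, while most other genes overlap between the groups.

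CPSF holds the subunit with the largest difference. Cpsf1 (ENSMUSG00000034022, chromosome 15 from 76595803 to 76607591, minus strand, GRCm38) encodes the scaffold on which the signal-reading subunits assemble. It had 13.4, 12.2 and 7.34 CPM in control libraries 1 to 3 and 2.21, 1.47 and 3.33 CPM in siRNA libraries 1 to 3. Each siRNA library was below the lowest control, which was control 3. The group means were 11 ± 3.23 CPM for controls and 2.34 ± 0.937 CPM for siRNA libraries (SD, n = 3 each). The log2 fold change was -2.23 (SE 0.439, 95% interval -3.23 to -1.24), with an edgeR unadjusted p of 0.000656 and an adjusted p of 0.0564. By fitted fold this is 4.70 times lower. Over all genes tested 2.3% had a fold change as low or lower. In RNA from whole embryos, fewer cells that express a gene and less RNA per cell cannot be told apart. The number of genes above 0 per library separated the groups as well, and its part in the Cpsf1 difference was not tested.

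The size of the Cpsf1 difference held across the ways of processing that were tried, while its side of the threshold did not. In all 16 alternatives the log2 fold change was negative, from -2.57 to -1.94. The adjusted p ranged from 2.71e-05 with DESeq2 to 0.322 in edgeR without siRNA library 1, and 4 of the 16 were under 0.05. Those 4 were DESeq2 (2.71e-05), limma-voom with group weights (0.0238), counts divided by 4 (0.0330, where 2.25% of all genes were called) and a filter of at least 50 units in 3 libraries (0.0378, with 2.04% called). The lowest value by size was with total counts, at -1.94 (edgeR adjusted p = 0.132). That scaling moved the median log2 fold change of all genes from 0.024 to 0.31. The deposited counts behind Cpsf1 were 1291, 1388 and 707 units in controls and 268, 172 and 441 units after siRNA.

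**Figure D2:**
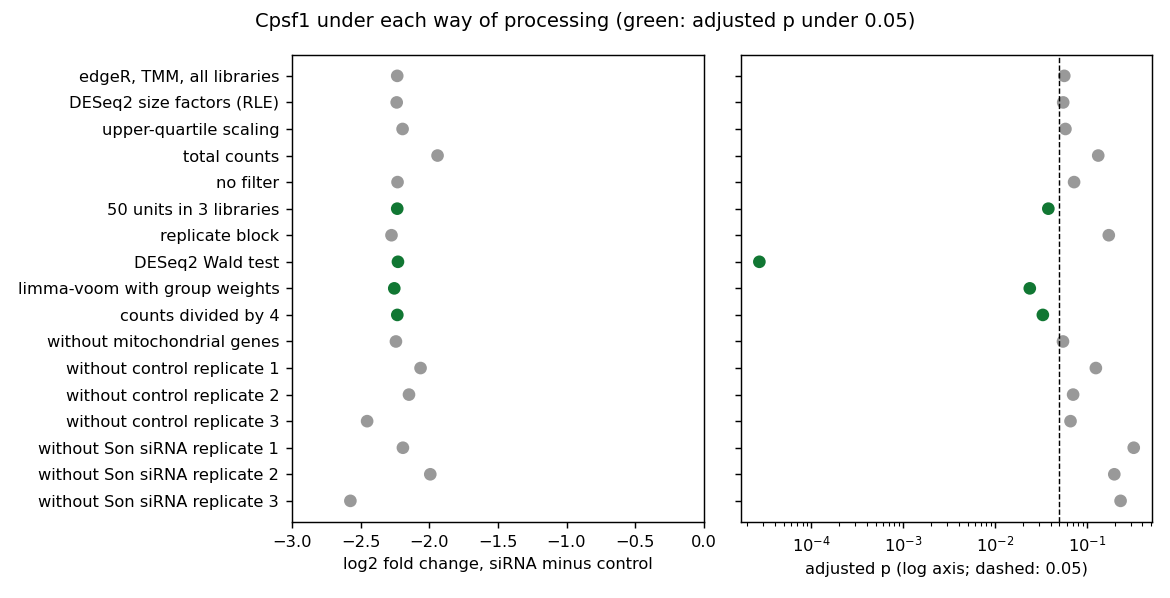
Log2 fold change of Cpsf1 (left, siRNA minus control) and its adjusted p (right, log axis, dashed line at 0.05) in the edgeR fit of all libraries and in 16 alternatives, 1 per line. Fold changes stay between -2.57 and -1.94, and 4 alternatives (green) have an adjusted p under 0.05.

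The other CPSF genes had values nearer to control; the difference between them and Cpsf1 was not tested. Cpsf3 (chromosome 12, 21285391 to 21315056) encodes the endonuclease that makes the cut. It had 13.6, 12.8 and 10.9 CPM in controls and 12.4, 8.54 and 13.6 CPM after siRNA. The groups overlapped, with a log2 fold change of -0.11 with SE 0.313 (edgeR adjusted p = 0.927) and an interval from 0.568 to 1.52 times control. Cpsf2 (chromosome 12, 101975988 to 102006424) encodes the nuclease's inactive partner. It had 23.4, 29.4 and 22.2 CPM in controls and 30.0, 34.3 and 35.4 CPM after siRNA, so that the lowest siRNA library was just above the highest control. Its log2 fold change was 0.41 with SE 0.255 (edgeR adjusted p = 0.518), with an interval from 0.891 to 1.98 times control. Cpsf4 (chromosome 5, 145167213 to 145182041) encodes a zinc-finger subunit that contacts the AAUAAA signal. It had 11.4, 38.5 and 15.6 CPM in controls and 22.9, 18.8 and 25.3 CPM after siRNA. Control 2 was 3.37 times control 1, and all siRNA libraries lay inside the control range. The interval for Cpsf4 ran from 0.510 to 2.04 times control, so the values leave room for a change in either direction within these bounds. The signs for Cpsf3 and Cpsf4 were not settled either, since Cpsf3 turned with total counts (log2 0.19) and Cpsf4 without control 1 (-0.28).

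Ratios within a library need no scaling between libraries, and Cpsf1 was set against its partners in this way after its values had been seen, with no test. Exonic length was that of all annotated exons of a gene merged. Per exonic kilobase, Cpsf1 was 0.925, 0.897 and 0.630 of Cpsf3 in controls 1 to 3. After siRNA it was 0.167, 0.161 and 0.229 of Cpsf3. By this length Cpsf1 stood nearer to the level of the nuclease gene in controls and well under it in each siRNA library. The lengths used were 5637 bases for Cpsf1 and 5279 for Cpsf3, while their longest coding transcripts have 4518 and 2499. How near the genes were in controls depends on the length chosen, whereas the change of the ratio between groups does not. Against Cpsf2 the ratio was 0.448 ± 0.126 in controls and 0.0714 ± 0.0262 after siRNA (SD, n = 3 each). Against Cpsf4 it was 0.418 ± 0.293 and 0.0653 ± 0.0173.

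**Figure D3:**
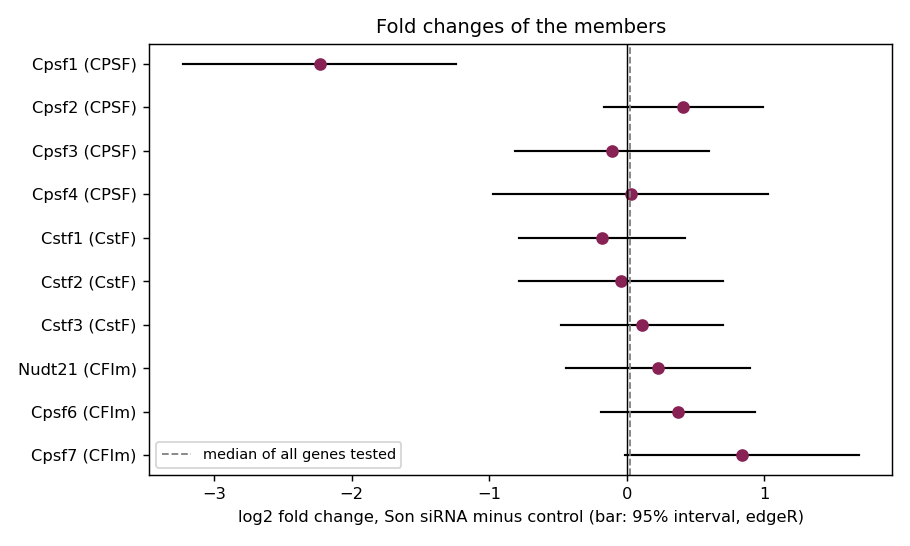
Log2 fold change of each gene (points, siRNA minus control) with its 95% interval from the edgeR fit (bars); the dashed line is the median of all genes tested, 0.024. The interval of Cpsf1, -3.23 to -1.24, lies below 0 and those of the other 9 genes include 0.

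The 3 CstF genes had siRNA values inside or close to the control range. Cstf2 (X chromosome, 134059187 to 134086819) encodes the subunit that binds the downstream element. It had 39.3, 24.1 and 18.04 CPM in controls and 26.1, 28.3 and 24.7 CPM after siRNA (a fold change of -0.042 in log2, SE 0.327, edgeR adjusted p = 0.972). Cstf3 (chromosome 2, 104590523 to 104665429) encodes the scaffold that joins the other subunits. It had 32.6, 51.5 and 47.2 CPM in controls and 52.2, 41.8 and 47.9 CPM after siRNA (log2 change 0.11, SE 0.260, edgeR adjusted p = 0.907). Cstf1 (chromosome 2, 172370681 to 172382448) encodes a WD40-repeat subunit. It had 63.3, 119 and 107 CPM in controls and 85.4, 83.9 and 86.5 CPM after siRNA (log2 change -0.18, SE 0.267, edgeR adjusted p = 0.832). Controls bracketed the siRNA libraries for Cstf1 and Cstf2, while for Cstf3 siRNA library 1 was just above the highest control. The intervals were 0.582 to 1.62 times control for Cstf2, 0.718 to 1.63 for Cstf3 and 0.581 to 1.34 for Cstf1. Within these bounds the sign is not settled: it turned for Cstf1 and Cstf2 with total counts, and without control 1 for Cstf2 (log2 0.33) and Cstf3 (-0.060).

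Cstf2 has an intronless paralog, Cstf2t, on chromosome 19 (31082837 to 31087069). Its product takes the place of the Cstf2 product in CstF in some cells, among them male germ cells. Per exonic kilobase, Cstf2 was 0.133, 0.0978 and 0.0180 of Cstf2t in controls and 0.0522, 0.0704 and 0.0587 after siRNA. Cstf2t was thus the higher of the pair in each of the 6 libraries. Cstf2t had 136, 114 and 462 CPM in controls and 231, 185 and 194 CPM after siRNA, with control 3 far above the others. The ratio of the pair differed by -0.040 in log2 between groups (exact two-sided permutation p = 1 over 20 assignments, n = 3 against 3, where 0.1 is the smallest possible). The ratio of Cstf2 to Cstf3 differed by -0.10 (exact permutation p = 1), with control 1 at 0.771 and the other libraries at 0.244 to 0.433. Neither gene of the pair shared a stretch of 100 bases with the other.

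The CFIm genes all had fold changes above 0, with none past the threshold. CFIm is built from the small subunit encoded by Nudt21, which binds UGUA, and a large subunit encoded by Cpsf6 or Cpsf7. Cpsf7 (chromosome 19, 10525266 to 10547653) had 2.89, 5.68 and 4.23 CPM in controls and 8.66, 7.28 and 6.96 CPM after siRNA. Each siRNA library was above the highest control. The means were 4.27 ± 1.39 and 7.63 ± 0.903 CPM (SD, n = 3 each), a log2 fold change of 0.84 (SE 0.375, 95% interval -0.0087 to 1.69). The edgeR unadjusted p was 0.0519 and the adjusted p 0.343. Of the exonic bases of Cpsf7, 4.10% overlap Tmem216 and Sdhaf2 on the opposite strand. Tmem216 had 9.91, 5.04 and 7.36 CPM in controls and 12.7, 13.2 and 10.6 CPM after siRNA, without overlap between groups. Sdhaf2 had 17.5, 19.4 and 10.9 CPM in controls and 20.6, 29.8 and 15.9 CPM after siRNA, with overlap. The part of these neighbours in the Cpsf7 values was not tested.

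Cpsf6 (chromosome 10, 117344673 to 117380015), the other gene for the large subunit, had 164, 282 and 209 CPM in controls and 294, 238 and 315 CPM after siRNA. Only control 2 reached into the siRNA range. The log2 fold change was 0.37 with SE 0.247 (edgeR adjusted p = 0.550), with an interval from 0.877 to 1.91 times control. Nudt21 (chromosome 8, 94015496 to 94037031) had 69.6, 135 and 68.4 CPM in controls and 98.1, 105 and 116 CPM after siRNA. Control 2 was the highest of the 6 libraries and the other controls were the lowest. Its log2 fold change was 0.23 with SE 0.296 (edgeR adjusted p = 0.804), with an interval from 0.736 to 1.86 times control. Of its 100-base stretches 10.8% also occur in the gene Gm7488, which had 0.289 to 1.36 CPM over the libraries.

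Between the large-subunit genes, Cpsf6 was far above Cpsf7 in each library, and less so after siRNA. The ratio of Cpsf6 to Cpsf7 per exonic kilobase was 34.5, 30.3 and 30.3 in controls and 20.7, 19.9 and 27.6 after siRNA. The groups did not overlap, and the difference was -0.49 in log2. A two-sided exact permutation test returned p = 0.1, the smallest possible for n = 3 against 3, and 0.4 after Benjamini-Hochberg adjustment over the 4 ratios tested. The ratio of Nudt21 to the sum of both large-subunit genes was 0.813, 0.910 and 0.621 in controls and 0.625, 0.829 and 0.698 after siRNA, with overlap (exact permutation p = 0.8).

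On a scale of CPM per exonic kilobase the order of levels was nearly the same in both groups. The scale rests on the merged length of all annotated exons, 10510 bases for Cpsf6, 3504 for Cstf1 and 5879 for Cstf3. Their longest coding transcripts have 6526, 3451 and 2817 bases. The places and gaps between genes given below therefore depend on the length chosen, and other lengths were not tried. In controls Cstf1 (27.6 ± 8.43), Cpsf6 (20.8 ± 5.68) and Nudt21 (17.0 ± 7.11, SD, n = 3 each) were the highest, and these 3 overlapped with their neighbours in the order. A gap followed to Cstf3 (7.45 ± 1.68), which overlapped with Cpsf4 (6.07 ± 4.05), as Cpsf4 did with Cpsf2 (4.36 ± 0.681). Cpsf2 overlapped with Cstf2 (2.96 ± 1.19), Cstf2 with Cpsf3 (2.35 ± 0.260) and Cpsf3 with Cpsf1 (1.95 ± 0.572). Cpsf7 was the lowest at 0.665 ± 0.217, apart from Cpsf1. After siRNA Cpsf1 (0.415 ± 0.166) was the lowest, apart from Cpsf7 (1.19 ± 0.141), so these genes exchanged places at the bottom. At the top Cpsf6 (26.9 ± 3.81) and Cstf1 (24.3 ± 0.371) also exchanged places, within overlap. The 2 lowest levels are thus a CPSF and a CFIm gene in either group, and the highest member exceeded the lowest 41.5-fold in controls and 64.8-fold after siRNA.

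Controls varied more than siRNA libraries. The coefficient of variation was larger in controls for 8 of the 10 genes, with a median of 29.9% in controls and 11.4% after siRNA. Over genes with a mean of at least 10 CPM the same held for 80.3%. The exceptions were Cpsf1 (29.3% and 40.1%) and Cpsf3 (11.1% and 23.1%). Control 2 was the highest control for 7 of the 10 genes, and the same count over all genes was not made. As a library, control 2 had 9.79% of its counts in mitochondrial genes, against 15.3% and 16.0% in controls 1 and 3. It also had the most genes above 0 of the controls (20411). Averaged over the genes, log2 CPM centred on each gene's mean was 0.36 in control 2 and between -0.18 and 0.12 in the other libraries. Without control 2 the log2 fold changes of Cpsf4, Nudt21 and Cpsf6 were 0.73, 0.63 and 0.60, and edgeR's adjusted p values were 0.226, 0.144 and 0.181. Control 2 was the highest control for each of these genes, so leaving it out raised their fold changes. Without control 1 they were -0.28, 0.068 and 0.20, and without control 3 -0.16, 0.060 and 0.34.

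Pearson correlations of log2 CPM between pairs of the 10 genes, over 6 libraries that share their preparation, ran from -0.84 to 0.92 with a median of 0.14, above 0 in 30 of 45 pairs. Cpsf4 and Nudt21 were the most alike (0.92) and Cstf1 and Cstf2 the most opposed (-0.84). Cpsf6 correlated with Cpsf7 at 0.88 and with Nudt21 at 0.82, and Cpsf1 with Cpsf7 at -0.81. The mean profile of the 10 genes was most like those of Gnl2 (r = 0.99), Rab10os (0.98), Vps18 (0.98), Mtmr14 (0.98) and Plekhm1 (0.98) among 6071 genes with a mean of at least 10 CPM. These values are descriptions over 6 libraries of both groups, so a difference between the groups enters each of them. Pairs of other genes were not counted for comparison.

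Cpsf1 also stood apart in its gene structure, a property looked up after its values had been seen. Its longest coding transcript has 37 exons and 36 introns with a median length of 78 bases, and 28 of the 36 introns are under 100 bases. Only 9 of the 13560 tested coding genes with introns have a median intron of 78 bases or less, and the median over those genes is 1552 bases. Its count of 36 introns is at the 97.5th percentile. The other 9 genes have 5 to 20 introns with medians of 848 bases (Cstf2) to 2645 bases (Nudt21). Among them Cpsf2 and Cstf3 have 1 intron each under 100 bases, and the remaining 7 have 0. Cpsf1 shares 0.248% of its exonic bases with Adck5 on the opposite strand, which had 0.895 to 3.01 CPM in controls and 1.03 to 2.82 CPM after siRNA. Gene counts do not separate spliced from unspliced RNA, so splicing of these introns was not measured here.

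**Figure D4:**
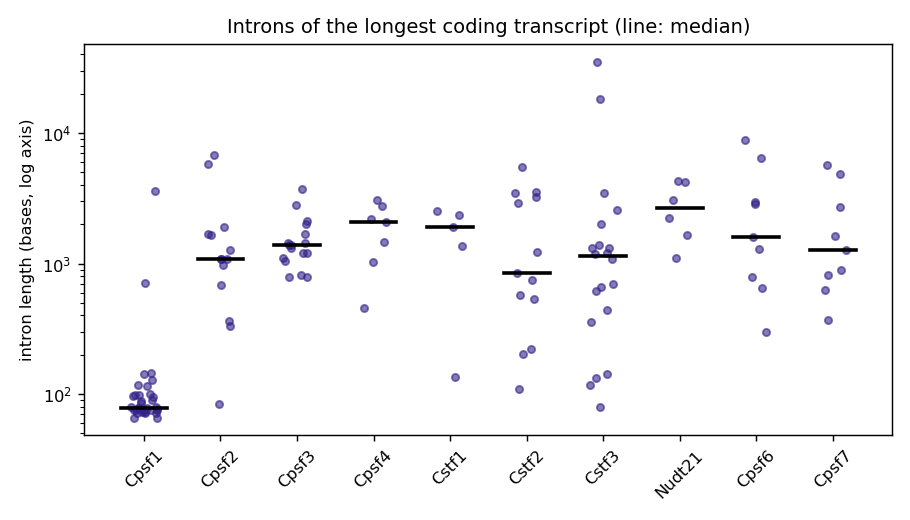
Length of each intron (points, log axis in bases) in the longest coding transcript of the 10 genes, with the median as a black line. Cpsf1 has a median of 78 bases and the other genes have medians of 848 to 2645 bases.

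The wider set of 3′ end processing genes was followed with a list of 48 others, all of which could be tested. By edgeR's adjusted p 0 were lower and 0 higher, against 0.989% of all genes tested. At an unadjusted p under 0.05 there were 4 lower and 2 higher, against 14.7% of all genes in either direction. DESeq2 called 3 lower and 0 higher, against 7.52% of all genes, and limma-voom with group weights called 0, against 2.1%. Fold changes were below 0 for 21 and above 0 for 27, with a median of 0.055 in log2 beside 0.024 over all genes. The groups did not overlap for 5 lower and 7 higher genes, where 11.6% and 12.1% of all genes were separated in these directions.

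The partners that complete the core complexes (11 genes, median 0.056) were led by Ssu72 and Clp1. Ssu72, a phosphatase of the RNA polymerase II tail, had 156, 154 and 138 CPM in controls and 173, 222 and 192 CPM after siRNA (log2 change 0.39, edgeR adjusted p = 0.417). Of the exonic bases of Ssu72, 15.1% overlap 1500002C15Rik on the opposite strand, whose part in the Ssu72 values was not tested. Clp1, an RNA kinase of cleavage factor II, had 140, 200 and 299 CPM and 131, 161 and 157 CPM (log2 -0.51, adjusted p = 0.462). Wdr33, which reads AAUAAA together with the Cpsf4 product on the Cpsf1 scaffold, had 168, 201 and 199 CPM in controls and 166, 179 and 176 CPM after siRNA (log2 change -0.13, edgeR adjusted p = 0.837). It was named for this role, after its values had been seen, and its groups overlapped.

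Of the enzymes that add tails, Tut1, a terminal uridylyl and adenylyl transferase, had 3.01, 8.40 and 7.85 CPM in controls and 14.2, 9.61 and 14.6 CPM after siRNA (log2 change 0.998, edgeR adjusted p = 0.334). Papolg, a nuclear poly(A) polymerase, had a log2 change of -0.65 (adjusted p = 0.455) with overlapping groups. Among cytoplasmic tail regulators, Cpeb2, an RNA-binding protein of the CPEB family, had 263, 72.7 and 184 CPM in controls and 70.5, 54.2 and 81.1 CPM after siRNA. Control 2 lay within the siRNA range, with log2 -1.34 (edgeR adjusted p = 0.176) over all libraries. Without control 2, the lowest control for Cpeb2, it was -1.70 with an edgeR adjusted p of 0.0324, past the threshold. Without control 1, the highest, it was -0.90 (edgeR adjusted p = 0.351). In the fits without any other single library the edgeR adjusted p was 0.252 to 0.475. Papd7, a noncanonical poly(A) polymerase gene now called Tent4a, had a log2 change of 1.17 (edgeR adjusted p = 0.329), and each siRNA library was above the controls.

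Pabpc4, a cytoplasmic poly(A)-binding protein gene, had the smallest p of the 48. It had 122, 198 and 126 CPM in controls and 76.0, 59.8 and 76.3 CPM after siRNA, without overlap (log2 -1.07, SE 0.259, edgeR adjusted p = 0.0952, DESeq2 adjusted p = 0.00672). Of its 100-base stretches 36.1% also occur in other genes, Gm10110 first among them, so its counts are uncertain. Zc3h14, a zinc-finger poly(A)-binding protein gene, had a log2 change of 0.38 (edgeR adjusted p = 0.544).

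In the group for histone and small nuclear RNA ends, the Integrator genes that resemble Cpsf3 and Cpsf2 were both lower without overlap. So were 11.6% of all genes tested, and these genes were named for having the smallest unadjusted p of the 7 in this role. Cpsf3l, now called Ints11, encodes the nuclease of the Integrator complex. It had 27.8, 57.6 and 31.1 CPM in controls and 16.4, 17.2 and 18.2 CPM after siRNA (log2 change -1.17, SE 0.332, edgeR adjusted p = 0.137, DESeq2 adjusted p = 0.0155). Of its exonic bases 22.7% overlap Pusl1 on the opposite strand, which had 2.12 to 3.60 CPM in controls and 3.45 to 4.28 CPM after siRNA. Ints9, the partner of Ints11, had 10.3, 10.4 and 19.0 CPM and 5.65, 7.67 and 8.79 CPM (log2 -0.85, edgeR adjusted p = 0.335, DESeq2 adjusted p = 0.177). Among termination factors, Rprd1a, which binds the polymerase tail, had a log2 change of -0.52 (edgeR adjusted p = 0.463), and Ccnk, the cyclin of Cdk12 and Cdk13, of 0.87 (adjusted p = 0.474).

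**Figure D5:**
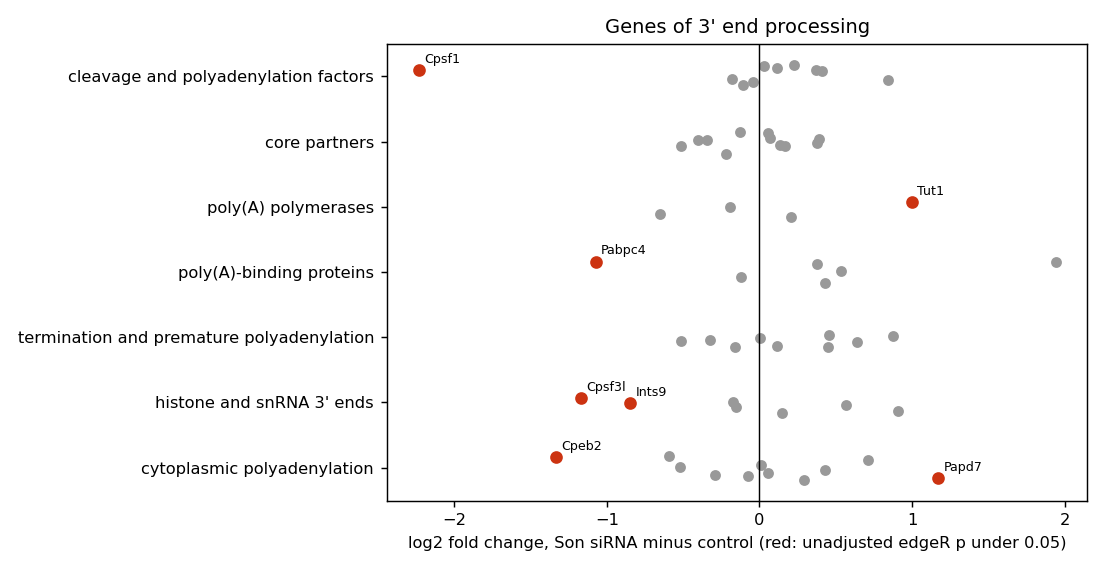
Log2 fold change (siRNA minus control) of the 10 cleavage and polyadenylation factor genes and of the 48 other genes by role, 1 point per gene, spread vertically for visibility; red points have an unadjusted edgeR p under 0.05. Cpsf1 at -2.23 is the lowest of all, and among the other genes 4 red points lie below 0 and 2 above.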

How the data were processed

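The authors deposited 1 table of estimated counts per gene for each library, whole numbers that were not normalized. Per the labels' protocols, whole embryos went into lysis solution and cDNA libraries followed Smart-Seq2, which starts from oligo(dT) priming and keeps no strand. The tools were StringTie 1.3.3b and HISAT2 2.0.5 on GRCm38, per the submitters' processing notes, while the annotation release and the counting step are not given.

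Groups and replicate numbers came from the sample titles. Counts were used as deposited. Genes kept by filterByExpr (17788 of 46072) were TMM-scaled and tested with edgeR 4.0.16 (R 4.3.3; glmQLFit, glmQLFTest, group only), with Benjamini-Hochberg adjustment over all of them and a threshold of 0.05. Intervals are 95% intervals from that fit. Log2 CPM used a prior count of 2. Ratios used counts per exonic kilobase, with all annotated exons of a gene merged, and an exact permutation test. Annotation came from GENCODE vM21, also on GRCm38, which matched 45223 of the 46072 identifiers. PCR copies cannot be told from separate molecules here.

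On simulated counts for Son siRNA against control (16711 genes tested), the fit recovered 68 of 100 with a 4-fold change and all 100 with an 8-fold change, with 10 unchanged genes among 178 calls. Changes were placed only in genes above a set floor of mean CPM, so recovery among lower genes was not measured.

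The 10 genes and the other lists were chosen with earlier results of these data known. Genes named beyond the 10 were Son, list members past the threshold and, in each of 6 roles, the 2 with the smallest unadjusted p; Cstf2t, part of a fixed ratio, and Wdr33, named for its role after its values had been seen, fall outside that rule. Alternatives were other scalings, filters, DESeq2 1.42.0, limma 3.58.1 (voom), a replicate block, counts divided by 4, no mitochondrial genes and leaving out each library.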

Additional observations from a re-analysis of the deposited data

How the results depend on the processing

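The number of genes called over the whole table (176) was 42 with total counts, 100 with no filter, 288 with at least 50 units in 3 libraries, 373 with limma-voom, 330 with counts divided by 4 and 1459 with DESeq2. It ranged from 0 to 315 when single libraries were left out, with 0 by edgeR without siRNA library 1, 2 or 3 (1786, 2348 and 1733 at an unadjusted p under 0.05). Of the 10 genes 1, Cpsf1, was called with the 50-unit filter, DESeq2, limma-voom and counts divided by 4, and 0 in the other alternatives. Of the 48 other genes DESeq2 called 3 lower (Cpeb2, Cpsf3l and Pabpc4), and leaving out libraries gave 0 to 1. The log2 fold change of Son ranged from -3.50 to -3.12 in those fits, and without siRNA library 1, 2 or 3 its adjusted p by edgeR missed the threshold (0.0648, 0.0709 and 0.136). Signs turned for genes near 0: with total counts Cpsf3 had 0.19, Cstf1 0.092 and Cstf2 0.25, and with limma-voom Cstf2 had 0.033. Leaving out libraries gave -0.24 to 0.063 for Cpsf3, -0.28 to 0.73 for Cpsf4, -0.41 to 0.0017 for Cstf1, -0.26 to 0.33 for Cstf2 and -0.060 to 0.25 for Cstf3. The log2 differences of the ratios then ranged from -0.64 to -0.40 for Cpsf6 over Cpsf7, -0.27 to 0.0037 for Nudt21 over the large subunits, -0.93 to 0.51 for Cstf2 over Cstf2t and -0.43 to 0.40 for Cstf2 over Cstf3. The cause of these changes was not tested.

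Replicate numbers are shared between the groups, but same-numbered libraries did not deviate together (correlations of -0.065, -0.073 and 0.050), so the numbers were not taken as pairs. With the replicate block edgeR called 0 genes (1997 at an unadjusted p under 0.05), Son was at -3.29 in log2 (adjusted p = 0.0617), Cpsf1 -2.28 (adjusted p = 0.172) and Cstf2 0.034. With 4 units added to each count the log2 differences of the 4 ratios kept their direction (Cpsf6 over Cpsf7 -0.48). The limma pseudocounts planned in case the files held FPKM or TPM were not run.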

Other observations

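The short introns of Cpsf1 prompted a count over all tested coding genes, made after its values had been seen and given with no test. Cpsf1 is 1 of 63 such genes with 10 or more introns under 100 bases. Their median log2 fold change after Son siRNA was -0.43, with 44 of 63 below 0 and 17 (27.0%) at -1 or below. Cpsf1 is itself in this median, among the 44 and among these 17, and genes at 1 or above were not counted. Genes with 1 to 9 such introns (3589) had a median of -0.088, with 15.0% at -1 or below. Genes with none (9908) had a median of 0.073, with 10.5% at -1 or below. Of the 63 genes edgeR's adjusted p called 1 lower and 0 higher, beside 141 lower and 15 higher of the 13560 tested coding genes with introns. The calls were 50 lower and 6 higher for genes with 1 to 9 such introns, and 90 lower and 9 higher for genes with none. Control and siRNA values did not overlap, in the lower direction, for 9 of the 63 (14.3%) against 12.6% of the 13560. This share was 16.996% for genes with 1 to 9 such introns and 10.991% for genes with none. Unlike the median, it was thus not most marked in the genes with 10 or more.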
